A study of Homo sapiens with 8 samples.

Results

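The mRNAs of the translation initiation and elongation factors were examined in RNA that was pulled down with the small ribosomal subunit. The members were taken by gene symbol, with a rule that was written when earlier results of these data were known. It holds the genes named EIF1 to EIF6 and EEF1 or EEF2, together with TPT1, PABPC1, PABPC4, and the release factor genes ETF1 and GSPT1, and it leaves out pseudogenes, the kinases of eIF2, and the eIF4E-binding proteins. Of the 57756 gene rows in the deposited tables, 62 are members of this set.

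RNA immunoprecipitation (RIP) was carried out with an antibody against RPS6, which is ribosomal protein S6 of the 40S subunit, and the recovered RNA was sequenced. The cells came from 4 established cancer cell lines with no treatment named in the labels, namely Hep3B from hepatocellular carcinoma, HCT116 from colorectal cancer, DU145 from prostate cancer, and SW1990 from pancreatic cancer. Each cell line gave 1 RIP library and 1 input library, the latter made from lysate that had not been precipitated, so that the 8 libraries form 4 pairs. No pair was repeated within a cell line, and no precipitation with a control antibody was analysed here. The sample titles and the paper name the liver cancer pair Hep3B, while the cell line field of the labels names Huh7. The pair is called Hep3B below, and values of the 4 libraries of a kind are given in the order Hep3B, HCT116, DU145, and SW1990.

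Translation of an mRNA begins when the eIF4 factors bind its 5′ cap and unwind the leader. The 40S subunit, loaded with eIF3, eIF1, eIF1A, eIF5, and the eIF2 complex that carries the initiator tRNA, then scans to the start codon, and eIF5B joins the large subunit. The eEF1 factors bring aminoacyl-tRNA to the ribosome and eEF2 moves it along the mRNA, until the release factors end the chain. Several of these factors are themselves encoded by 5′TOP mRNAs, which start with a C followed by a run of pyrimidines and whose translation depends on the mTOR pathway, as that of the ribosomal protein mRNAs does. The antibody brings down mRNAs that are held by 40S subunits, alone or in whole ribosomes, and does not tell these states apart.

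Each library held between 34630338 and 54209625 fragments. The members together took 1.75% to 4.50% of the fragments of an input and 1.94% to 3.51% of those of a RIP library. The mRNAs of cytosolic ribosomal proteins took 3.06% to 14.3% of an input and 1.58% to 2.93% of a RIP library, mitochondrially encoded RNAs took 0.471% to 5.0% and 0.0183% to 0.325%, and the nuclear RNAs MALAT1 and NEAT1 took 0.127% to 0.880% and 0.0184% to 0.0926%. The shares of ribosomal protein mRNAs, of mitochondrially encoded RNAs, and of MALAT1 and NEAT1 were lower in the RIP library of every pair. The share of the members rose in Hep3B and DU145 and fell in HCT116 and SW1990. The part of these shares in the results below was not tested. Since each library gives shares of its own total, more of 1 kind of RNA and less of the others cannot be told apart. The liver gene ALB reached 5030 FPKM in the Hep3B input and less than 1 FPKM in each other input. The prostate gene KLK3 was at or near 0 in DU145. The intestinal genes CDX2 and ASCL2 stood at 86.6 and 153 FPKM in the pancreatic line SW1990 against 6.25 and 0 FPKM in the colorectal line HCT116. Of the other intestinal genes, VIL1 stood at 4.72 and 0 FPKM there and at 151 FPKM in Hep3B, and GPA33 was below 1 FPKM in every input. The pancreatic genes PDX1 and SOX9 stood at 12.7 and 60.6 FPKM in SW1990 against 1.28 and 28.9 FPKM in HCT116. KRT19 was lower in SW1990 (229 against 570 FPKM), and MUC1 was alike in both (1.16 and 1.14 FPKM). Whether these libraries carry the right labels was not tested. Libraries are named by their labels, and calls that were lost without 1 pair are named beside the gene. FPKM, the fragments of a gene divided by transcript length and by library depth, was normalized by the authors separately for a table of Hep3B and HCT116 and a table of DU145 and SW1990. Each RIP library shares a table with its input, but levels that are set side by side across all 4 cell lines come from both tables.

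The translation factor mRNAs split between both directions. Of the 62 members, 61 had enough counts to be tested, with RIP compared with input over the 4 pairs by edgeR's quasi-likelihood test with the cell line as a block and Benjamini-Hochberg adjustment over all genes tested. At an adjusted p under 0.05, 21 members were higher in the RIP (34.4% of those tested, where 26.5% of all 19921 tested genes were called higher) and 21 were lower (34.4%, where 24.9% of all genes were called lower). The other 19 did not pass. The median log2 fold change of the members was 0.07, and that of all tested genes was -0.05. The largest differences reached 4.52-fold higher for EIF4G1 and 6.53-fold lower for TPT1, among members whose 4 cell lines all pointed the same way. Of the 42 called members, 37 had a ratio of RIP to input of the same sign in all 4 cell lines, 20 of them higher and 17 lower. Calls and ratios come from the same 4 pairs, so this is not separate support for the calls. With or without a call, 26 of the 61 members had all 4 ratios above 0 and 18 below. Of all 19921 tested genes, 6125 had all 4 above 0 and 4710 below. When library totals alone set the scale, 13 members were called higher and 24 lower. The median of all tested genes then moved to -0.40, and that of the members stayed 0.12 above it, as in the reported fit. The calls among all genes at this scale are not given here, so these counts are not a result about the members. The member that was not tested, EIF4E1B, a gene for an eIF4E homolog, had at most 7 fragments in any library.

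**Figure D1:**
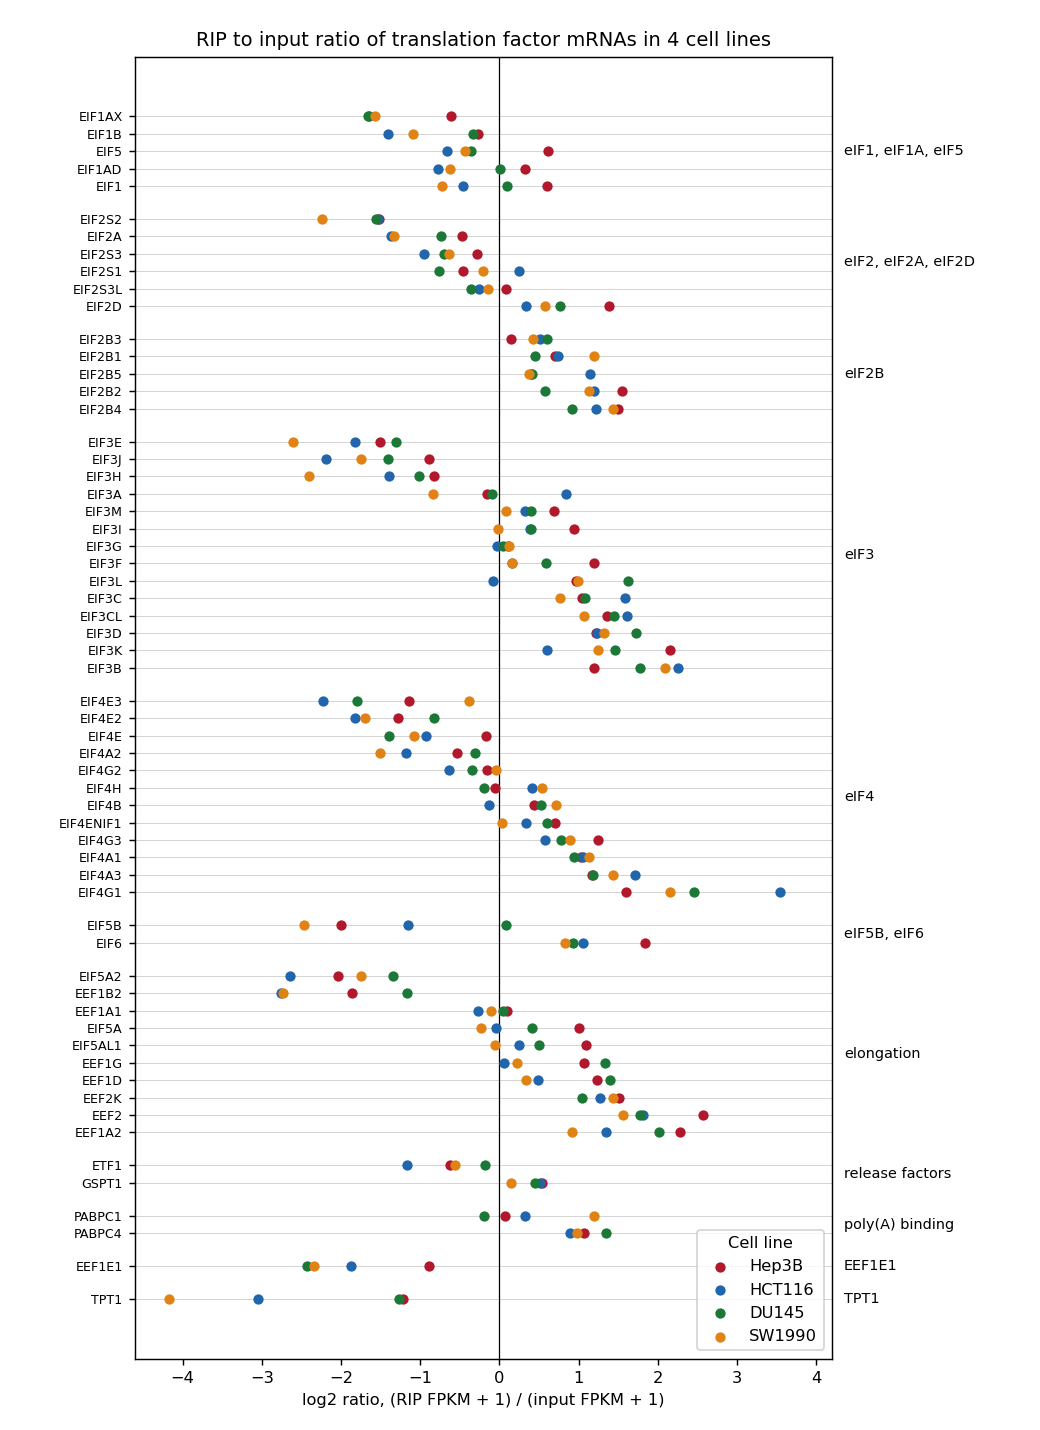
Ratio of RIP to input for 60 of 62 members, with 1 row per gene, sorted by role (names at the right) and by fold change within a role. The x axis is log2 of (RIP FPKM + 1) over (input FPKM + 1), each point is 1 cell line by colour, and the line at 0 marks an equal level. All 5 eIF2B genes lie to the right of 0 in all 4 cell lines, and TPT1 lies to the left, at -1.21 in Hep3B and -4.17 in SW1990. EIF4E1B was not tested and EIF1AY is left out.

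Within single cell lines, where 1 library stands against 1 library and no test is possible, the members were compared by the ratio of (FPKM + 1). In Hep3B, 22 of the 61 tested members were at least 2-fold higher in the RIP and 8 at least 2-fold lower, while 19.1% of all tested genes were that much higher and 10.6% that much lower. HCT116 had 14 members at least 2-fold higher (18.7% of all genes) and 16 lower (13.4% of all genes). DU145 had 14 higher (18.2% of all genes) and 12 lower (13.6% of all genes), and SW1990 had 13 higher (19.8% of all genes) and 16 lower (16% of all genes). The median log2 ratio of the members was 0.43 in Hep3B and 0.39 in DU145 but 0.16 in HCT116 and 0.04 in SW1990, and that of all tested genes was between 0.00 and 0.08. EIF4G1 had the highest ratio of all members in HCT116, DU145, and SW1990, and EEF2 had it in Hep3B.

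In FPKM, 10 members had all 4 RIP libraries above all 4 inputs (16.4%, against 10.9% of all tested genes), namely EEF2K, EIF3B, EIF3C, EIF3K, EIF4A1, EIF4ENIF1, EIF4G1, EIF2B1, EIF2B4, and EIF6. The opposite order, with all RIP libraries below all inputs, was found for 8 members (13.1%, against 8.17% of all tested genes), namely TPT1, EEF1B2, EIF3J, EIF2S2, EIF2A, EIF1AX, EEF1E1, and ETF1. All of these but EIF4ENIF1, which encodes an eIF4E transporter, also passed the test (edgeR log2 fold change 0.28 ± 0.18 (SE), adjusted p = 0.221).

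The start sites of the members that are known as 5′TOP mRNAs are given before their values. The sequences below were read from RefSeq promoter entries on GRCh38.p14 and hold 10 bases before the annotated start and 20 bases from it, 5′ to 3′ on the strand of the gene. Capitals mark the run of C and T that begins with a C at the first transcribed base. The first group holds the 7 members on a list of 5′TOP mRNAs that have an entry. Of those that begin with the run, TPT1 was lower in the RIP and EEF2 was higher, while EEF1A1, EIF3F, and EIF4B did not pass.
TPT1 (chr13:45341164-45341193, minus strand): ctgagtcggcCTTTTCCgcccgctcccccc
EEF1A1 (chr6:73521013-73521042, minus strand): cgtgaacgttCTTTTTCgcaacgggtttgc
EEF2 (chr19:3985444-3985473, minus strand): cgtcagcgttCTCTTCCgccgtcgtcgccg
EIF3F (chr11:7987327-7987356, plus strand): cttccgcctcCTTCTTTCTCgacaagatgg
EIF4B (chr12:53006446-53006475, plus strand): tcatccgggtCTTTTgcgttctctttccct
EEF1B2 (chr2:206159599-206159628, plus strand): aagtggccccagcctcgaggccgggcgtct
EEF1G (chr11:62573872-62573901, minus strand): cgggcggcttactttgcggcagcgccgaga
A C followed by at least 4 pyrimidines at the first base was present in 5 of these 7 (71.4%), in 45 of 71 ribosomal protein genes (63.4%), and in 655 of 14145 protein-coding genes with an entry (4.63%). EEF1B2 and EEF1G have no such run at the start that RefSeq annotates. No match says only that these letters are not at this position. Entries were found for 50 of the 62 members in all.

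Members that are not on the 5′TOP list also began with such a run in 7 of 43 cases (16.3%), and 4 of them are shown because they share a start of this kind and moved in opposite directions.
EIF3D (chr22:36529147-36529176, minus strand): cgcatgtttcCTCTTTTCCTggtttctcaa
EIF3K (chr19:38619178-38619207, plus strand): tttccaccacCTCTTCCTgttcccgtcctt
EIF2A (chr3:150546777-150546806, plus strand): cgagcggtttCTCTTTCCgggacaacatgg
EIF2S3 (chrX:24054946-24054975, plus strand): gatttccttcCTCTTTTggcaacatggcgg
EIF3D and EIF3K were higher in the RIP (log2 fold change 1.29 and 1.32), and EIF2A and EIF2S3 were lower (-1.40 and -0.95). Among members with an entry, 4 of the 16 that were higher (25%) and 4 of the 18 that were lower (22.2%) began with the run. These shares are a description of the annotated starts, not a test.

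Of the 11 members on the 5′TOP list, 2 were higher in the RIP (EEF2 and EEF1D), 4 were lower (TPT1, EEF1B2, EIF3E, and EIF3H), and 5 did not pass (EEF1A1, EEF1G, EIF3F, EIF4B, and PABPC1). The 2 and 4 called genes are 18.2% and 36.4% of these 11, where 26.5% and 24.9% of all tested genes were called higher and lower. Their median log2 fold change was 0.06, with a range from -2.71 to 1.67. Of the 89 tested mRNAs of cytosolic ribosomal proteins, the other large 5′TOP class, 66 were lower in the RIP and 1 was higher, with a median of -1.93. The difference between both lists was not tested. Ribosomal protein mRNAs are short, with a median length of 0.275 relative to other genes where the members have 0.866, and length is set against the fold change below.

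**Figure D2:**
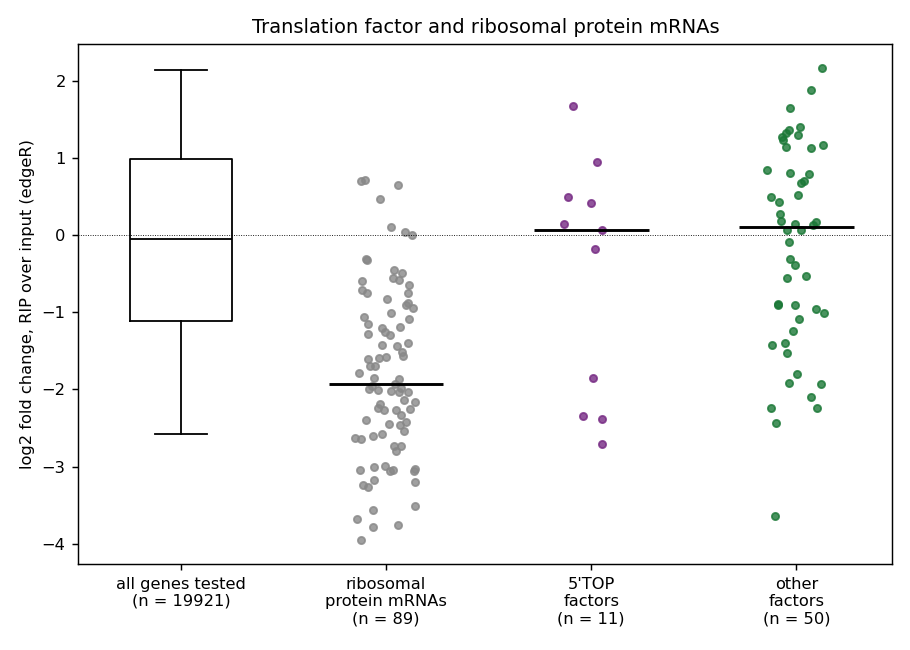
Log2 fold change of RIP over input by edgeR (y axis) for all 19921 tested genes, drawn as a box between the quartiles with its median and with whiskers at the 5th and 95th percentiles, and as 1 point per gene for 89 ribosomal protein mRNAs, 11 translation factors on the 5′TOP list, and 50 other members. Thick lines are medians, which stand at -1.93, 0.06, and 0.10, and points are spread sideways only to be seen.

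TPT1 encodes the translationally controlled tumor protein, a 5′TOP mRNA that is counted with the factors here and not a factor of the core cycle itself. It stood at 552, 2269.7, 674, and 7582 FPKM in the inputs and at 238, 273, 279, and 421 FPKM in the RIP libraries. The inputs ran from 552 to 7582 FPKM, while the RIP libraries stayed within a narrow range that lay below every input. TPT1 was 6.53-fold lower in the RIP (edgeR log2 fold change -2.71 ± 0.49 (SE), adjusted p = 0.000935), at chr13:45911007-45965872 of hg19 as the files give the span. By mean FPKM it ranked 2nd among the 62 members in the inputs and 16th in the RIP. The span also holds the snoRNA gene SNORA31.

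The 5 members with the highest mean level in the inputs were EEF1A1 (3074 ± 1851 FPKM, SD over the 4 cell lines), TPT1 (2769 ± 3303), PABPC1 (2115 ± 1160.1), EEF2 (985 ± 653), and EEF1B2 (954 ± 475). The SDs are between cell lines and overlap, but all of these genes were read in the same 4 inputs. PABPC1 was above EEF2 in every input, at 749, 3478, 1719.9, and 2511 against 472, 1859, 499, and 1111 FPKM. The other neighbours in this order changed places between inputs. The order was not tested, and these levels are per length and come from both tables. In the RIP libraries the order was led by EEF2 (3591 ± 2084), PABPC1 (3090.4 ± 2338), and EEF1A1 (2821 ± 1389.7), and EEF1B2 fell to the 22nd place.

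Among the elongation factor genes, eEF2 and eEF1A2 were enriched in the RIP and a subunit of the exchange factor of eEF1A was depleted. Of the 10 genes, 4 were higher in the RIP (EEF1A2, EEF2, EEF2K, and EEF1D), 2 were lower (EIF5A2 and EEF1B2), and 4 did not pass. The called genes are 40% and 20% of the group, where 26.5% and 24.9% of all tested genes were called higher and lower. EEF2, whose product drives translocation, stood at 472, 1859, 499, and 1111 FPKM in the inputs and at 2815, 6555, 1707, and 3285 FPKM in the RIP libraries. Its RIP level was above the paired input in every cell line, and the groups overlap only because the DU145 RIP library lies below the HCT116 input. It was 3.19-fold higher (edgeR log2 fold change 1.67 ± 0.29 (SE), adjusted p = 0.000676), at chr19:3976053-3985467 of hg19, a span that also holds SNORD37. EEF2K, the kinase that phosphorylates eEF2 and slows elongation, stood at 5.57, 8.26, 5.89, and 3.68 FPKM in the inputs and at 17.8, 21.2, 13.2, and 11.7 FPKM in the RIP libraries. It was thus a low mRNA whose groups did not overlap, with a log2 fold change of 1.36 ± 0.18 (SE) (edgeR adjusted p = 0.000151).

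The eEF1 complex showed both directions. Its subunits are eEF1A, which delivers aminoacyl-tRNA, and the exchange factor subunits encoded by EEF1B2, EEF1D, and EEF1G. EEF1A1, the form most cells use, stood at 2139, 5517, 1247, and 3394 FPKM in the inputs and 2294, 4568, 1284, and 3139 FPKM in the RIP libraries. The level differed more between cell lines than between RIP and input, with log2 ratios of 0.10, -0.27, 0.04, and -0.11 (edgeR log2 fold change -0.18 ± 0.27 (SE), adjusted p = 0.609). Rows named as processed EEF1A1 copies, 38 in number, held 10.6% to 13.3% of the fragments that fell on EEF1A1 and these copies together, so the split between them is uncertain.

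EEF1A2, the form known from muscle and neurons, stood at 15.02, 208, 93.8, and 2.16 FPKM in the inputs and at 76.8, 527, 383, and 4.98 FPKM in the RIP libraries. Its level differed widely between cell lines, and the RIP was above the paired input in all 4 (edgeR log2 fold change 1.89 ± 0.27 (SE), adjusted p = 0.000225). EEF1B2 stood at 739, 1088, 443, and 1546 FPKM in the inputs and at 203, 159.9, 196, and 231 FPKM in the RIP libraries. All RIP values lay below all inputs, and the log2 fold change was -2.39 ± 0.32 (SE) (edgeR adjusted p = 0.000138). Its span on hg19, chr2:206979540-207027652, also holds the snoRNA genes SNORA41 and SNORD51 and the gene NDUFS1. Of the other exchange factor subunits, EEF1D was higher in the RIP (log2 fold change 0.95 ± 0.25 (SE), edgeR adjusted p = 0.00931), and EEF1G did not pass (0.49 ± 0.27 (SE), adjusted p = 0.154), although its FPKM ratio was above 0 in all 4 cell lines. The call of EEF1D was lost without the Hep3B pair (adjusted p = 0.0615), without the DU145 pair (adjusted p = 0.0675), and with library totals only (log2 fold change 0.60, adjusted p = 0.0887).

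EIF5A and EIF5A2 encode eIF5A, the hypusine-bearing factor that helps ribosomes past difficult peptide bonds. EIF5A, the abundant form, stood at 679, 884, 779.6, and 1274 FPKM in the inputs and at 1369, 857, 1039, and 1082 FPKM in the RIP libraries, with no common direction (edgeR log2 fold change 0.19 ± 0.27 (SE), adjusted p = 0.58). EIF5A2 stood at 19.3, 17.98, 7.67, and 29.7 FPKM in the inputs and at 3.94, 2.04, 2.41, and 8.16 FPKM in the RIP libraries. It was lower in every pair, by 5.39-fold in the fit (log2 fold change -2.43 ± 0.25 (SE), edgeR adjusted p = 3.32e-05), and the groups overlap only at the SW1990 RIP library and the DU145 input. EIF5AL1 is a near-identical copy of EIF5A, and its values are uncertain for that reason.

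**Figure D3:**
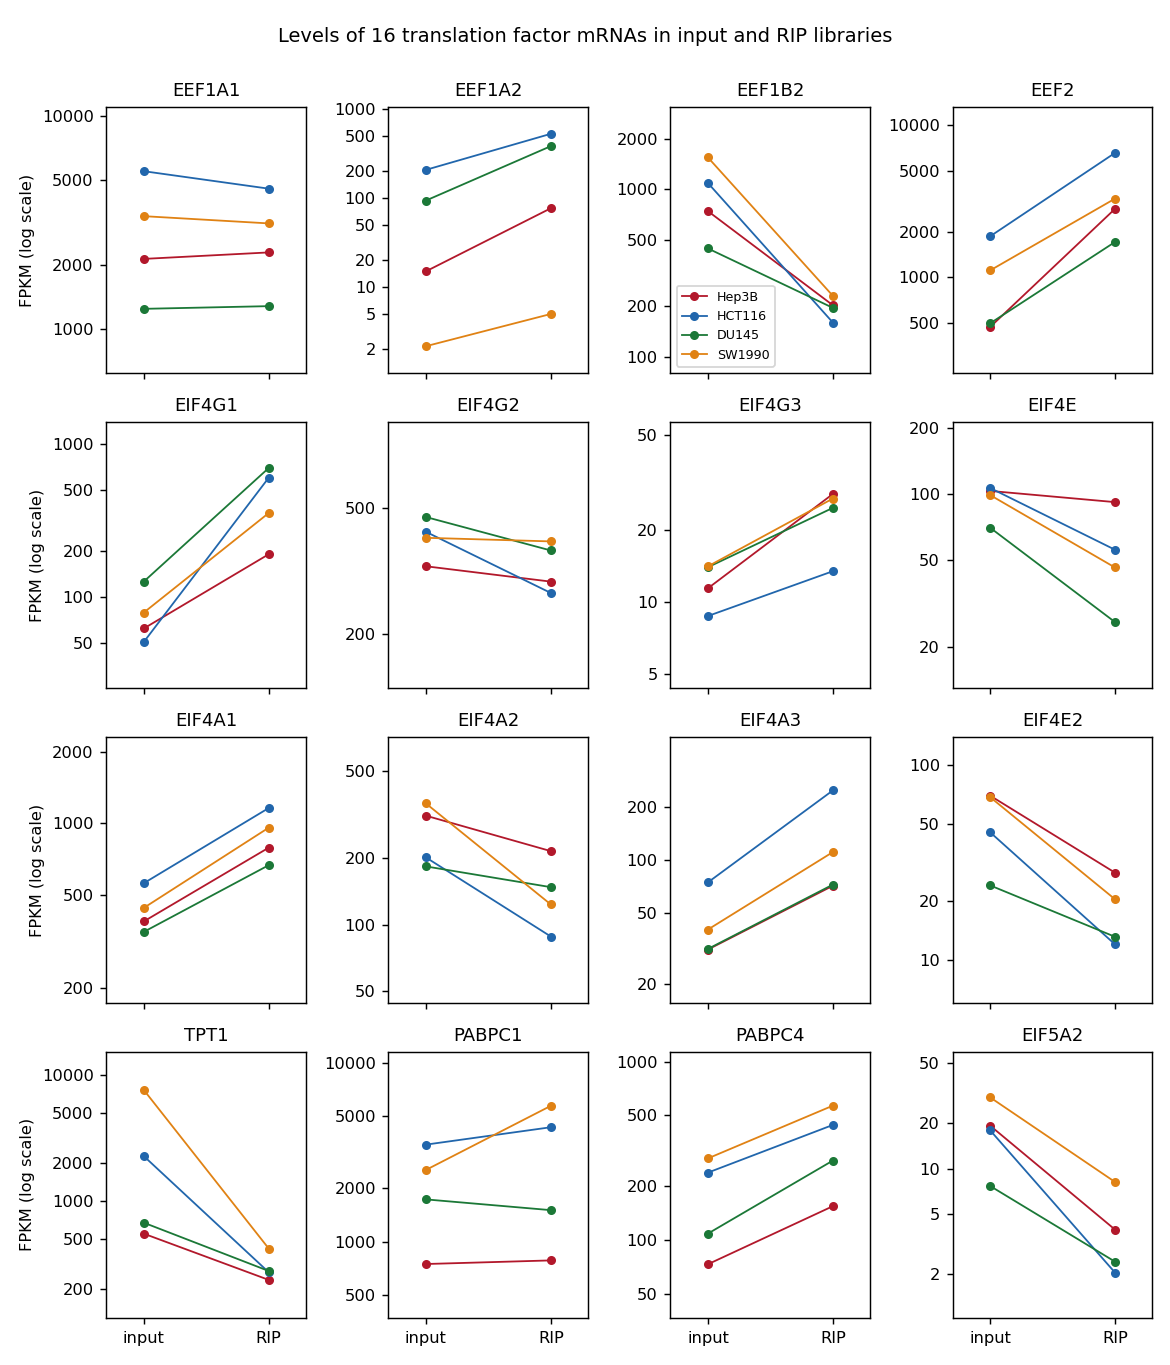
Levels of 16 members in the input and the RIP library of each cell line, 1 panel per gene, with FPKM on a log scale whose range differs between panels. Each line joins the 2 libraries of 1 cell line. EEF1A1 keeps the order of the cell lines with little slope, whereas TPT1 and EEF1B2 slope down and EEF2, EEF1A2, and EIF4G1 slope up in all 4.

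In the eIF4 group, which binds the cap and unwinds the leader, the scaffold genes EIF4G1 and EIF4G3 were higher in the RIP and all 3 tested cap-binding protein genes lower, while the helicase genes split. Of 12 tested genes, 4 were higher (EIF4G1, EIF4A3, EIF4A1, and EIF4G3), 4 were lower (EIF4E3, EIF4E2, EIF4E, and EIF4A2), and 4 did not pass (EIF4G2, EIF4H, EIF4B, and EIF4ENIF1). The called genes are 33.3% of the group in each direction, where 26.5% and 24.9% of all tested genes were called higher and lower. EIF4G1, the main scaffold that joins the cap-binding protein, the helicase, and eIF3, stood at 61.9, 50.5, 126, and 78.7 FPKM in the inputs and at 189.6, 601, 696, and 353 FPKM in the RIP libraries. Every RIP library lay above every input, and HCT116, the lowest input, had the largest ratio. The log2 fold change was 2.17 ± 0.31 (SE) (edgeR adjusted p = 0.000208), the highest of all members. The files give EIF4G1 the span chr3:183851806-184402546 of hg19, which covers 22 other listed genes, among them the member EIF2B5 and the snoRNA gene SNORD66.

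The paralogues of EIF4G1 were closer to their inputs. EIF4G2, which encodes a shortened scaffold without the eIF4E-binding part, stood at 327, 420.3, 468, and 402 FPKM in the inputs and at 292, 269, 367, and 392 FPKM in the RIP libraries. Its ratio was below 0 in all 4 cell lines but did not pass (edgeR log2 fold change -0.38 ± 0.22 (SE), adjusted p = 0.178), and it passed with DESeq2 (adjusted p = 0.0319) and with library totals only (adjusted p = 0.0292). EIF4G3, a second full-length scaffold, stood at 11.4, 8.7, 13.9, and 14.04 FPKM in the inputs and at 28.2, 13.4, 24.7, and 26.98 FPKM in the RIP libraries. It was higher in the RIP (log2 fold change 0.53 ± 0.18 (SE), edgeR adjusted p = 0.0294), and this call was lost without the HCT116, DU145, or SW1990 pair (adjusted p between 0.0822 and 0.103). It was also lost with library totals only (0.18, adjusted p = 0.44), with TMM over protein-coding genes (0.34, adjusted p = 0.127), and with no minimum on counts (adjusted p = 0.101).

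The cap-binding proteins were lower in the RIP. EIF4E, whose product holds the cap in most initiation events, stood at 103, 107, 70.2, and 99.003 FPKM in the inputs and at 91.9, 55.7, 26.03, and 46.2 FPKM in the RIP libraries, with the smallest difference in Hep3B (edgeR log2 fold change -1.43 ± 0.19 (SE), adjusted p = 0.000145). EIF4E2, a homolog known for repression, stood at 69.7, 45.2, 24.1, and 68.5 FPKM and 28.02, 12.005, 13.1, and 20.5 FPKM (log2 fold change -1.53 ± 0.20 (SE), edgeR adjusted p = 0.000126). EIF4E3, a further homolog, was low, at 1.77, 11.99, 13.8, and 4.07 FPKM in the inputs and 0.261, 1.77, 3.26, and 2.89 FPKM in the RIP libraries (log2 fold change -2.24 ± 0.35 (SE), edgeR adjusted p = 0.000424). For all 3 genes the ratio was below 0 in each cell line.

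The helicase genes EIF4A1 and EIF4A2 encode closely related proteins of the cap complex, and they moved in opposite directions. EIF4A1 stood at 385, 558, 347, and 439 FPKM in the inputs and at 789.8, 1163, 666, and 959.7 FPKM in the RIP libraries. Its 4 log2 ratios lay between 0.94 and 1.13, the groups did not overlap, and the log2 fold change on counts was 0.80 ± 0.21 (SE) (edgeR adjusted p = 0.0089). With library totals only, that call was lost (log2 fold change 0.45, edgeR adjusted p = 0.118). EIF4A2 stood at 312, 202, 184, and 355 FPKM in the inputs and at 216, 88.5, 148, and 124 FPKM in the RIP libraries (edgeR log2 fold change -1.24 ± 0.22 (SE), adjusted p = 0.000983). It was lower in each pair, and its span holds 5 snoRNA genes, among them SNORA4, SNORA81, and SNORD2, while the span of EIF4A1 holds SNORA48, SNORA67, SNORD10, and a read-through gene with SENP3. EIF4A3, whose product belongs to the exon junction complex and not to the cap complex, stood at 31.3, 74.8, 31.5, and 40.6 FPKM in the inputs and at 71.6, 247, 72.6, and 111 FPKM in the RIP libraries (edgeR log2 fold change 1.27 ± 0.18 (SE), adjusted p = 0.000228). The helper EIF4B, which stimulates the helicase and is on the 5′TOP list, did not pass (0.15 ± 0.22 (SE), edgeR adjusted p = 0.601).

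The mRNAs of 4 of the 5 subunits of eIF2B, which recharges eIF2 with GTP, were higher in the RIP, while those of eIF2 itself were lower. Of the 5 eIF2B genes, 4 were higher (EIF2B4, EIF2B2, EIF2B5, and EIF2B1), and EIF2B3 did not pass (log2 fold change 0.15 ± 0.22 (SE), edgeR adjusted p = 0.603). The 4 are 80% of this small group, where 26.5% of all tested genes were called higher. With library totals only or TMM over protein-coding genes, EIF2B4 and EIF2B2 were called higher and no subunit lower, and EIF2B3 turned to -0.20 and -0.04. All 5 had a ratio above 0 in all 4 cell lines, and the median log2 ratio of the group was between 0.57 in DU145 and 1.14 in HCT116. EIF2B4, which encodes the delta subunit, stood at 11.9, 26.1, 28.04, and 26.1 FPKM in the inputs and at 35.3, 62.1, 54.01, and 71.8 FPKM in the RIP libraries, without overlap (edgeR log2 fold change 1.40 ± 0.18 (SE), adjusted p = 0.00011). EIF2B5, the catalytic epsilon subunit, was higher by 0.70 ± 0.20 (SE) on the log2 scale and shares its span with EIF4G1, and without the HCT116 pair the call was lost (edgeR adjusted p = 0.0626). EIF2B1, the alpha subunit, passed narrowly (0.49 ± 0.18 (SE), edgeR adjusted p = 0.0453) and lost the call without any 1 of the 4 pairs (adjusted p between 0.0789 and 0.173).

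The eIF2 complex, which brings the initiator tRNA, is encoded by EIF2S1, EIF2S2, and EIF2S3 for its alpha, beta, and gamma subunits. All 3 were called lower in the RIP over the 4 pairs, although the FPKM of EIF2S1 in HCT116 was higher in the RIP (log2 ratio 0.24), with log2 fold changes of -0.91, -2.10, and -0.95. EIF2S2 stood at 36.8, 58.1, 52.6, and 103 FPKM in the inputs and at 12.2, 19.5, 17.2, and 20.9 FPKM in the RIP libraries, and no RIP value reached an input value (log2 fold change -2.10 ± 0.20 (SE), edgeR adjusted p = 2.01e-05). EIF2A, an alternative carrier of initiator tRNA, was lower as well (-1.40 ± 0.18 (SE), edgeR adjusted p = 0.000111), whereas EIF2D, another noncanonical factor, was higher (0.68 ± 0.20 (SE), edgeR adjusted p = 0.017). The call of EIF2D was lost without the Hep3B or the DU145 pair (adjusted p = 0.119 and 0.0587) and with library totals or protein-coding TMM. EIF2S3L is a near copy of EIF2S3 at under 2 FPKM in every library, and it did not pass. Of these 6 genes, 66.7% were called lower and 16.7% higher, where 24.9% and 26.5% of all tested genes were.

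Of the genes for the scanning factors eIF1, eIF1A, and eIF5, none was higher in the RIP under the scalings and units tried. In the reported fit, 4 of 6 were lower (EIF1AX, EIF1AY, EIF1B, and EIF5), and EIF1 and EIF1AD did not pass. The 4 are 66.7% of this small group, where 24.9% of all tested genes were called lower. With limma on FPKM, at either pseudocount, 2 were called lower (EIF1AX and EIF1B). The median log2 ratio of the group was 0.18 in Hep3B and -0.72, -0.34, and -0.91 in the other cell lines. EIF1AY, on the Y chromosome, had the lowest fold change of all members (edgeR log2 fold change -3.64 ± 0.56 (SE), adjusted p = 0.000348). It had at most 2 fragments per library in 2 of the 4 cell lines, so its call rests on DU145 and SW1990. EIF5 was higher on FPKM in the RIP of Hep3B (log2 ratio 0.61) and lower in that of the other cell lines. EIF1AX, the eIF1A gene on the X chromosome, stood at 34.6, 50.8, 28.6, and 56.4 FPKM in the inputs and at 22.4, 15.6, 8.37, and 18.3 FPKM in the RIP libraries. The groups did not overlap, and the log2 fold change was -1.80 ± 0.20 (SE) (edgeR adjusted p = 4.21e-05). EIF1, which guards start codon choice, stood at 369, 614, 499, and 598 FPKM in the inputs and 559.5, 445, 533, and 361 FPKM in the RIP libraries, higher in the RIP of Hep3B and lower in that of SW1990 (edgeR log2 fold change -0.31 ± 0.23 (SE), adjusted p = 0.293). Its homolog EIF1B was lower in each pair (-1.09 ± 0.24 (SE), edgeR adjusted p = 0.00356). EIF5B, the factor of subunit joining, was lower by 3.76-fold (log2 fold change -1.91 ± 0.30 (SE), edgeR adjusted p = 0.000369), but its ratio in DU145 was 0.08. EIF6, which keeps the large subunit free, was higher (1.15 ± 0.22 (SE), edgeR adjusted p = 0.00145), with all 4 RIP libraries above all inputs.

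**Figure D4:**
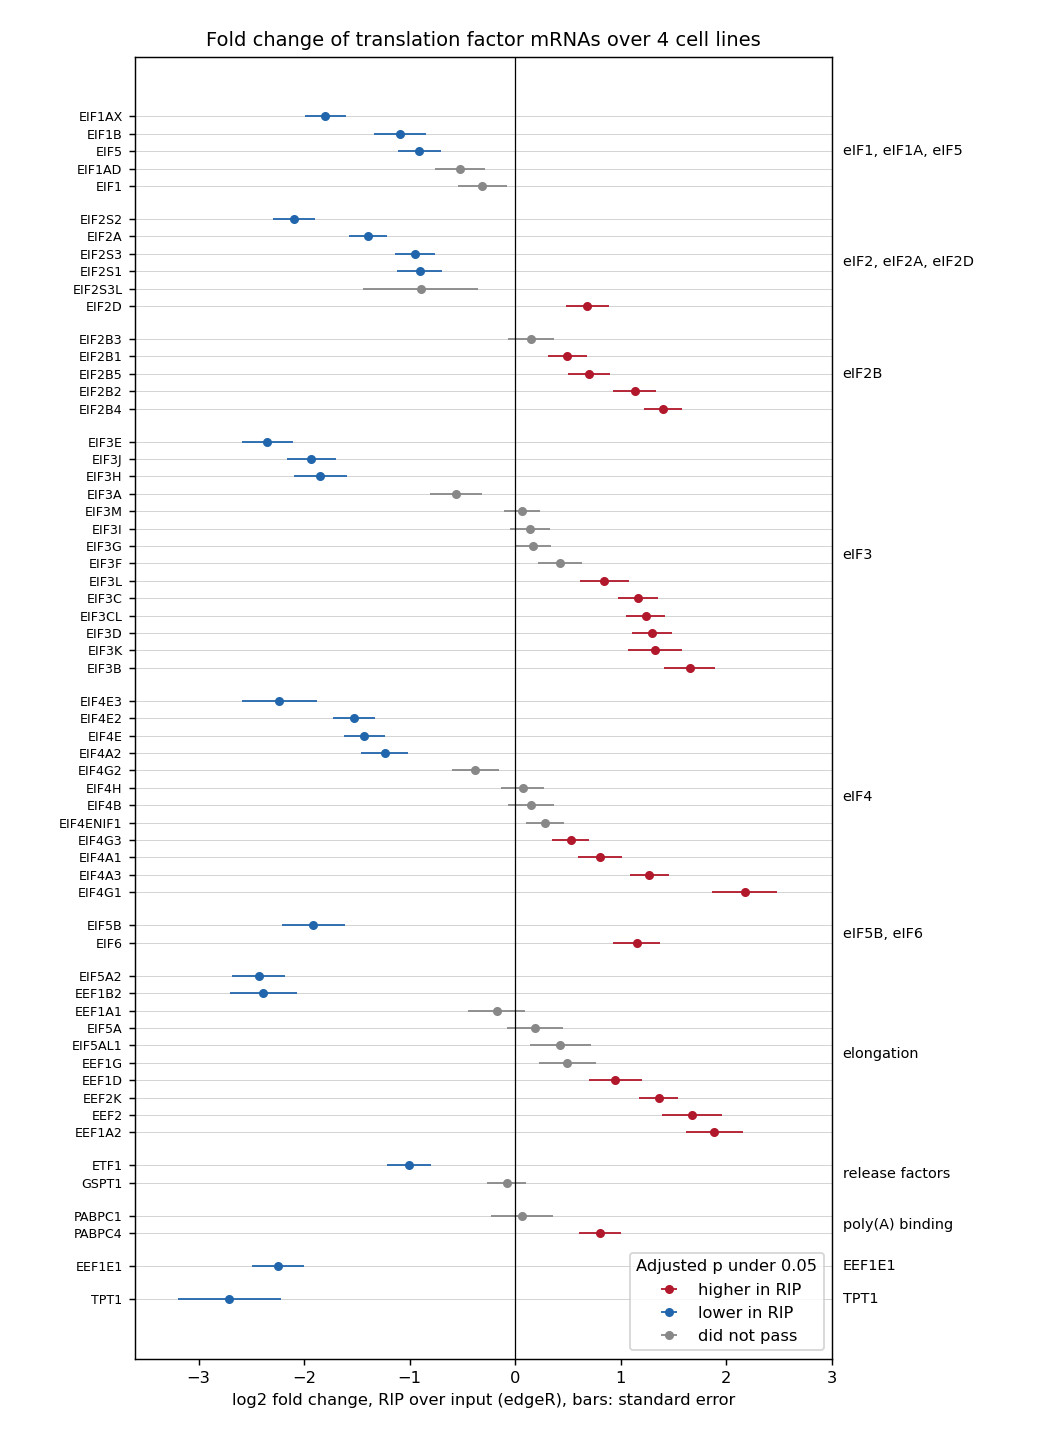
Log2 fold change of RIP over input for 60 members by edgeR on the estimated counts (x axis), with bars of 1 standard error, sorted by role (names at the right). Red points were higher and blue points lower at an adjusted p under 0.05, and grey points did not pass. EIF4E1B was not tested and EIF1AY is left out. The eIF2B genes lie at 0.15 to 1.40, and the eIF2 subunits EIF2S1, EIF2S2, and EIF2S3 at -0.91, -2.10, and -0.95.

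The 14 genes of eIF3, the large complex that coats the 40S subunit, did not move as 1 unit. EIF3B, EIF3K, EIF3D, EIF3CL, EIF3C, and EIF3L were higher in the RIP, EIF3E, EIF3J, and EIF3H were lower, and EIF3A, EIF3F, EIF3G, EIF3I, and EIF3M did not pass. The called genes are 42.9% and 21.4% of the group, where 26.5% and 24.9% of all tested genes were called higher and lower. EIF3L lost its call without the DU145 pair (edgeR adjusted p = 0.0816) and with library totals only (0.50, adjusted p = 0.118), and its ratio in HCT116 was -0.08. EIF3B, a subunit conserved from yeast, stood at 78.9, 119, 110.2, and 134 FPKM in the inputs and at 182, 573, 381, and 574 FPKM in the RIP libraries. No input reached a RIP value, and the log2 fold change was 1.65 ± 0.24 (SE) (edgeR adjusted p = 0.000229). EIF3D, which can itself bind certain caps, stood at 44.05, 159, 40.2, and 79.8 FPKM and 104, 374, 135, and 201 FPKM (log2 fold change 1.29 ± 0.19 (SE), edgeR adjusted p = 0.00026). EIF3K, a small subunit, stood at 109, 289, 155, and 227 FPKM and 489, 436, 430.2, and 541 FPKM, and its RIP levels differed less between cell lines than its inputs did (log2 fold change 1.32 ± 0.26 (SE), edgeR adjusted p = 0.00157). EIF3C and EIF3CL are near-identical copies on chromosome 16 whose fragments may have been split between them. Their fragments were close in every library, such as 7372 and 7330 in the HCT116 input and 13257 and 13311 in its RIP library. Their like fold changes (1.17 and 1.23) are therefore not separate observations, although both genes are counted as called.

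Among the eIF3 genes that were lower, EIF3E and EIF3H are on the 5′TOP list, and EIF3J encodes a loosely held subunit. EIF3E stood at 365, 937, 260.3, and 856 FPKM in the inputs and at 127, 265, 104, and 139 FPKM in the RIP libraries (edgeR log2 fold change -2.35 ± 0.24 (SE), adjusted p = 2.93e-05). EIF3H stood at 129, 321, 68.3, and 189.8 FPKM and 72.1, 121, 33.3, and 34.9 FPKM (edgeR log2 fold change -1.85 ± 0.25 (SE), adjusted p = 0.000156). Both had their largest fall in SW1990, with log2 ratios of -2.61 and -2.41. EIF3J stood at 59.8, 58.3, 133, and 167 FPKM and 31.98, 11.95, 49.5, and 48.8 FPKM, and here the groups did not overlap (edgeR log2 fold change -1.93 ± 0.23 (SE), adjusted p = 7.3e-05). EIF3F, the remaining 5′TOP member of the complex, had ratios above 0 in all 4 cell lines and did not pass (0.42 ± 0.21 (SE), edgeR adjusted p = 0.121).

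At the end of the cycle, ETF1, which encodes the release factor that reads stop codons, stood at 109, 138, 92.97, and 115 FPKM in the inputs and at 70.1, 60.8, 81.9, and 78.1 FPKM in the RIP libraries, and was lower without overlap (edgeR log2 fold change -1.01 ± 0.20 (SE), adjusted p = 0.00206). GSPT1, its GTPase partner, did not pass on counts (-0.08 ± 0.19 (SE), edgeR adjusted p = 0.738), while its FPKM ratio was above 0 in all 4 cell lines. The poly(A)-binding protein gene PABPC1 stood at 749, 3478, 1719.9, and 2511 FPKM in the inputs and 785, 4350.4, 1498, and 5729 FPKM in the RIP libraries, higher only in SW1990 by over 2-fold (edgeR log2 fold change 0.06 ± 0.30 (SE), adjusted p = 0.875). PABPC4, its paralogue, stood at 73.1, 238, 108, and 286 FPKM and 155, 441, 278, and 566 FPKM and was higher in each pair (edgeR log2 fold change 0.80 ± 0.20 (SE), adjusted p = 0.00677), and the call was lost without the DU145 pair (adjusted p = 0.058) and with library totals only (0.45, adjusted p = 0.104). EEF1E1 carries an elongation factor symbol but encodes a scaffold of the aminoacyl-tRNA synthetase complex. It stood at 80.6, 74.3, 51.02, and 118 FPKM in the inputs and at 43.01, 19.5, 8.66, and 22.5 FPKM in the RIP libraries, without overlap (edgeR log2 fold change -2.25 ± 0.25 (SE), adjusted p = 4.22e-05), and its span includes a read-through gene with BLOC1S5.

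The scale mattered for some members. With limma on log2(FPKM + 1), the fold change of 53 of the 61 members lay above that of edgeR on the estimated counts, by a median of 0.26 on the log2 scale, where the median over all tested genes was 0.17. Of the members called on counts, 19 were also called higher and 18 also called lower on FPKM, and none was called on FPKM only. The calls that were lost on FPKM were those of EEF1D, EIF3L, EIF2S1, EIF5, and EIF1AY. EIF5 moved the furthest of the first 4, from -0.91 on counts to -0.21 on FPKM (limma adjusted p = 0.501), and EIF2S1 moved from -0.91 to -0.30 (limma adjusted p = 0.263). The cause of this difference was not tested.

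Transcript length and fold change went together weakly. The length of a gene's transcripts was taken as its estimated count over its FPKM, relative to other genes. Over 57 members it correlated with the log2 fold change with a Spearman rho of 0.25, and over 10707 genes with a rho of 0.28. Genes share the same 8 libraries and are not independent replicates, so this is a description only. Short TPT1, EEF1B2, and EEF1E1 were among the lowest members, and long EIF4G1 and EEF2K among the highest. Others went against this. EIF5B, EIF2S2, and EIF1AX were lower in the RIP at relative lengths of 1.84, 1.47, and 1.41, and short EIF3K and EEF1D (0.416 and 0.397) were higher. EIF3A, the longest, and EIF3M, the shortest, did not pass.

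Genes that act around these factors were read from lists of their regulators and partners and of the translation factors of mitochondria. Of 37 tested regulators and partners, 11 were higher in the RIP (29.7%, near the 26.5% of all tested genes) and 14 lower (37.8%, where it was 24.9% of all tested genes), and the median log2 fold change was -0.11. The highest called genes were GCN1L1 (3.33 ± 0.30 (SE), edgeR adjusted p = 1.59e-05), the activator of the eIF2 kinase GCN2, CYFIP1 (2.26), which can repress eIF4E, EEFSEC (1.81), the elongation factor for selenocysteine, and DOHH (1.73), which completes the hypusine of eIF5A. The lowest called genes were DENR (-3.08 ± 0.21 (SE), edgeR adjusted p = 1.23e-05), which acts in recycling and reinitiation, EIF2AK2 (-2.27), the double-stranded RNA-dependent eIF2 kinase, and EIF4EBP2 (-2.16), a repressor of eIF4E. GCN1L1 rose from 26.1, 27.7, 34.5, and 19.3 FPKM in the inputs to 106, 401, 226, and 271 FPKM in the RIP libraries, and DENR fell from 83.6, 53.6, 125, and 101 FPKM to 13.02, 11.1, 15.1, and 16.3 FPKM.

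Of 12 mitochondrial translation factors, which are encoded in the nucleus and made on cytosolic ribosomes, 8 were lower in the RIP (66.7%) and 1 was higher (8.33%). Of all tested genes, 24.9% were called lower and 26.5% higher. The median log2 fold change was -1.06 for these 12 and -0.05 for all tested genes. MTIF3, an initiation factor of mitochondria, and MTRF1L, a release factor, were the lowest (log2 fold change -3.06 ± 0.36 (SE) and -2.72 ± 0.21 (SE), edgeR adjusted p = 6.16e-05 and 1.27e-05). TUFM, the mitochondrial counterpart of eEF1A, was the 1 that was higher, at 138, 255, 108, and 232 FPKM in the inputs and 347, 900.1, 404, and 679 FPKM in the RIP libraries (edgeR log2 fold change 1.51 ± 0.21 (SE), adjusted p = 0.000175).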

How the data were processed

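RPS6 RIP-seq and input libraries of 4 cell lines were analysed, 1 of each per line, grouped by the sample labels. The authors aligned reads to hg19 with TopHat (TopHat2 2.0.9 and CASAVA 1.8 per the submitters' processing notes), from libraries made with a stranded total RNA kit. The counting program, its annotation, and its filters are not given in the sources used here. The sequencer is named differently in the paper and in the series record. The authors deposited an FPKM value and an estimated count per gene and library, in 2 tables normalized separately. The deposited fold changes, p-values, and q-values of single pairs were not used.

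Raw counts had been assumed in the design. The estimated counts were rounded, and edgeR 4.0.16 in R 4.3.3 was run on them (quasi-likelihood test, TMM, genes with a mean count of 10 or more, cell line as a block, Benjamini-Hochberg adjustment over 19921 genes, threshold 0.05). The scripts were tested on simulated data. RIP and input of 1 cell line pair by design. Across genes, deviations from the group means correlated with r of 0.80 to 0.87 within a cell line and -0.44 to -0.01 between cell lines. Taking off a mean over 4 libraries pushes the values between cell lines below 0. The contrast shows that RIP and input share the identity of a cell line and does not test the pairing. The p-values rest on the spread between these 4 pairs, which the quasi-likelihood test moderates toward that of other genes. SE is the absolute log2 fold change divided by the square root of the F value of that test. Ratios within a cell line used FPKM with a pseudocount of 1 and have no test. Dividing the counts of a library by their common step gave whole fragments for 92.2% to 93.8% of values (within 0.01 and the rounding of the file), and these fragments give the depth. Fragments are not independent molecules, and a floor of 3 fragments covers counting error only.

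Members were found by symbol. The members and the lists (roles, 5′TOP mRNAs, regulators and partners, mitochondrial factors, markers) were chosen with earlier results of these data known. Named members are the 10 highest and 10 lowest called members whose 4 ratios had the same sign, the 5 most abundant, paralogues, and the 5′TOP list, with up to 5 other genes in each direction, and further members are named with their values by role group. Of the members, 49 share their deposited span with another listed gene, 17 of them with a snoRNA gene, and 133 rows are pseudogenes named after members; how their reads were split is not known. Start sites are RefSeq's (GRCh38.p14), matched by symbol, with 1 start per gene that may not be the one used in these cells. Alternatives left out the block, changed the minimum, the scaling, and the unit, used DESeq2 1.42.0 or limma 3.58.1, and left out each pair in turn. Other steps used Python 3.11.15, pandas 2.3.3, NumPy 2.4.6, matplotlib 3.10.9, and SciPy 1.17.1.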

Additional observations from a re-analysis of the deposited data

Results flagged for a closer look

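A search of 117 sets of 4 values, the levels and ratios of the named members, found 4 with 1 cell line far from the other 3, where about 1 in 20 such sets is found by chance. EIF2B4 had an input level of log2(FPKM + 1) of 3.69 in Hep3B, with the other inputs at 4.76 to 4.86. EIF2S2 had a log2 ratio of -2.24 in SW1990, with the other ratios at -1.56 to -1.52. EIF1AX had a log2 ratio of -0.61 in Hep3B, with the others at -1.66 to -1.57. EIF3F had a RIP level of log2(FPKM + 1) of 6.35 in DU145, with the others at 7.77 to 7.89. EIF1 moved in opposite directions in 2 cell lines, with a log2 ratio of 0.60 in Hep3B and -0.73 in SW1990, each of 1 pair, and this difference was not tested.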

How the results depend on the processing

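No member was called in the direction opposite to the reported one under any of the 13 alternatives. Without the block for the cell line, so with no replicate block, 3 members were higher and 13 lower, with 1427 and 1344 of all genes and 4 and 12 of the other pathway genes. With library totals only, 13 members were higher, and the median log2 fold change was -0.28 for the members and -0.29 for the 5′TOP members. The median of all tested genes then moved from -0.05 to -0.40, to -0.24 with TMM over protein-coding genes, and to -0.60 with no minimum on counts, which adds genes near 0. Relative to that of all genes, the median of the members was 0.12 in the reported fit, with library totals, and with protein-coding TMM, but 0.62 with no minimum on counts, 0.019 with a minimum mean of 50 counts, 0.27 and 0.24 with limma on FPKM, 0.040 without SW1990, and 0.060 without Hep3B. The 5′TOP median was -0.12 with protein-coding TMM, and with limma on log2(FPKM + 1) and on log2(FPKM + 0.1) PABPC1 was the median gene of both the members and the 5′TOP members, at 0.34. Leaving out 1 pair gave 15 to 19 members higher and 21 to 22 lower, a median of -0.05 to 0.10 for the members, and a 5′TOP median of -0.13 to 0.15, the lowest without SW1990. For library totals and for leaving out 1 pair, the calls among all genes are not given here, so these counts have no background. Fold changes changed sign under some alternative for 10 members, none of them called in the reported fit. EIF3M, EIF3I, EIF3G, EIF4H, EIF4ENIF1, and EIF2B3 fell below 0 with library totals, and all of these but EIF4ENIF1 with protein-coding TMM, EIF3M and EIF3I also without Hep3B, and EIF4H also without SW1990. The others were PABPC1 (-0.29 with library totals, -0.12 with protein-coding TMM, and -0.24 to 0.19 with 1 pair left out, the lowest without SW1990), EIF5A (-0.16 with library totals, and -0.16 to 0.36 with 1 pair left out, the lowest without Hep3B), EIF4B (-0.20 with library totals, -0.035 with protein-coding TMM), and GSPT1 (0.41 with limma on both pseudocounts). Library totals ended 8 calls of members and added 3 lower ones (EIF3A, EIF4G2, and EIF1AD). Of 637 values of named genes under an alternative, 595 kept direction and call, 31 lost the call, 2 gained it, and 9 changed sign. The cause was not tested. With 4 pairs and no repeat within a cell line, a difference between cell lines has no test.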
